A study of Mus musculus with 6 samples.

Results

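The 10 genes described here encode the cyclins of the G1 phase (Ccnd1, Ccnd2, Ccnd3, Ccne1 and Ccne2), the kinases that they activate (Cdk2, Cdk4 and Cdk6) and the pocket proteins Rb1 and Rbl1. They were chosen by name, with earlier results of these data known. Every probe set whose only gene symbol in the platform's annotation is one of them was taken, which gave 24 of the 45037 probe sets tested and 10 of 17097 named genes. Fibroblasts derived from mouse embryonic stem cells, either WT or CD98hc KO (null for Slc3a2, which encodes the CD98 heavy chain of amino acid transporters), were grown in the same high-glucose DMEM with serum, non-essential amino acids, glutamine and β-mercaptoethanol. Total RNA was hybridised to Affymetrix mouse expression arrays, 3 labelled WT and 3 labelled KO, with replicate numbers 1, 3 and 5 under each label. The sources used here do not say how many independent lines or cultures the arrays represent, so the p-values measure spread among arrays that may be technical repeats.

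Progress through G1 depends on cyclins, regulatory subunits that switch on cyclin-dependent kinases (CDKs). D-type cyclins accumulate in response to growth factors and nutrients and activate CDK4 and CDK6, which begin to phosphorylate the retinoblastoma protein RB and its relatives. Pocket proteins that are not phosphorylated hold E2F transcription factors in check, and their inactivation releases E2F targets, among them the E-type cyclins, which activate CDK2 and carry the cell into S phase. Fibroblasts rely on D-type cyclins to leave G1, whereas mouse embryonic stem cells are known for a short G1, little D-type cyclin and much cyclin E activity.

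Since pocket proteins act through E2F, promoters were searched on both strands for TTTCCCGC, TTTCGCGC, TTTGCCGC and TTTGGCGC, the 4 forms of the E2F consensus, whose matches on opposite strands may overlap. RefSeq promoters (GRCm38.p6, 250 bases before to 50 after each start) matched 6 of the 10 genes, with 7 promoters in all. A match was found in 2 of these 7 promoters, against 2.26% of all 32851 promoters of the same length, and the matches with their neighbouring bases are shown because they belong to a pocket protein and to the kinase downstream of it. Capitals mark the match, and each sequence reads 5′ to 3′ on the strand of the gene.
Rbl1: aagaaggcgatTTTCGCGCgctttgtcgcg
Cdk2: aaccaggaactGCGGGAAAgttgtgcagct
The Rbl1 window lies at chr2:157204534-157204563 on the minus strand, and the match begins 18 bases before the start. The Cdk2 window lies at chr10:128705173-128705202 on the minus strand, with the match on the opposite strand to the gene, 140 bases before the start. The promoters of Ccne1, Cdk4 and Cdk6 and both promoters of Ccnd3 did not hold these letters. Promoters of Ccnd1, Ccnd2, Ccne2 and Rb1 were not analysed here.

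Slc3a2, the targeted gene, was higher under the KO label (mean log2 value 10.60 under WT and 11.58 under KO, limma adjusted p = 0.00018), against the label, and the place of its only probe set relative to the deletion is not known here. For this reason every direction below is that of the label, and it would be reversed throughout if the labels were exchanged, which these arrays do not settle. Among markers of pluripotent stem cells, 9 of 9 measured were higher under KO, with a median level between 4.64 and 4.94 under the WT label and between 11.09 and 11.63 under the KO label. Of 10 markers of fibroblasts, 6 were lower and 1 was higher, with a median level between 8.87 and 9.78 under WT and between 5.03 and 5.19 under KO. Over all genes 22.6% were higher and 19.2% lower. Epithelial markers were higher in 5 of 6, primitive endoderm markers lower in 3 of 5, endothelial markers were higher in 2 of 4, and of 4 neural markers 2 were higher and 1 lower. Blood markers were higher in 1 of 4, near the share over all genes. Muscle markers gave 0 calls among 4, with 0 also at an unadjusted p under 0.05. The differences in pluripotency and fibroblast markers run with the labels, so they accompany every result below, and their part in the results was not tested. Arrays correlated at 0.991 to 0.994 within and 0.911 to 0.92 between labels (Pearson's r over all probe sets). The 9 hybridisation controls had means of 8.69 to 8.73 on the replicate 3 arrays and 9.81 to 9.94 on the others, so values within the 4 arrays of replicates 1 and 5 are also given. This grouping was read from the control values, and no label names it as a batch.

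On the KO-labelled arrays, Ccnd1, Ccnd2, Ccne2, Cdk6 and Rbl1 were lower, Ccne1 was higher, and Cdk2, Cdk4 and Rb1 did not pass the test. Of the 24 probe sets, 15 passed an adjusted p under 0.05, against 32.7% of all, and 14 were lower (limma, adjusted over all probe sets), where 16% of all probe sets were lower, and 1 was higher, where 16.8% of all were. Past a further limit of 2-fold were 12 (13.8% of all probe sets), 11 of them lower (7.43%) and 1 higher (6.35%). The values of the groups did not overlap in 20 of the 24 probe sets, against 45.9% of all. The probe sets of 1 gene measure the same transcripts and are not independent, and 6 of the 14 lower ones belong to Ccnd2. Since the genes were chosen with earlier results of these data known, the counts beside these shares are description only. With each gene represented by its most variable probe set, the rule of the study, 5 of the 10 genes were lower and 2 higher, against 19.2% and 22.6% of all genes (41.9% for either direction), and the additional higher gene was Ccnd3. In RNA from whole cultures, fewer cells of a type and less RNA per cell cannot be told apart.

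**Figure D1:**
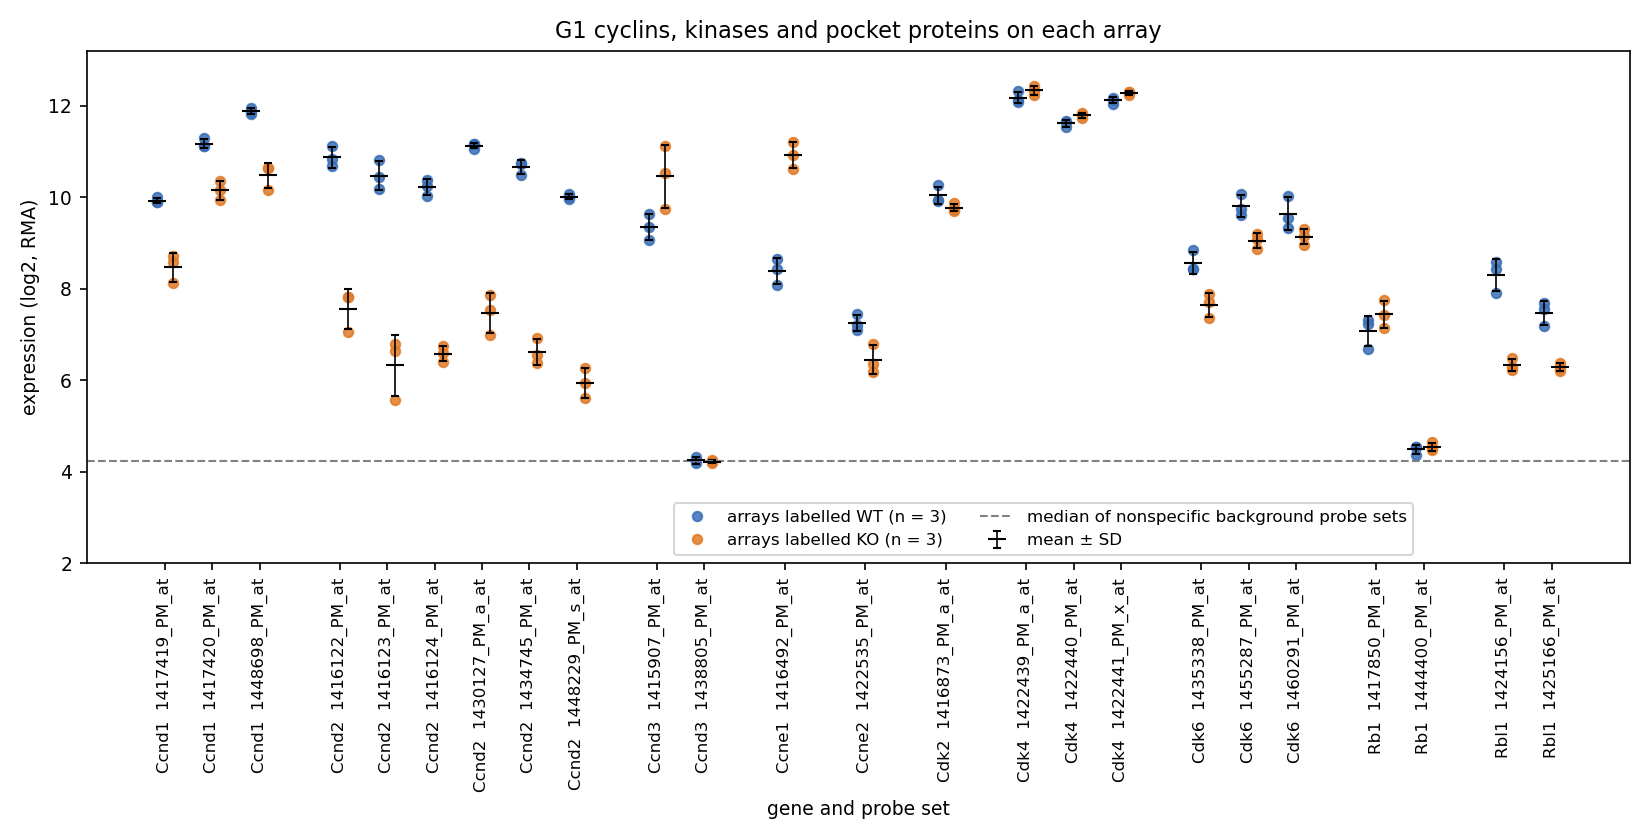
RMA log2 expression (vertical axis) of every probe set of the 10 genes (horizontal axis), with blue points for WT-labelled and orange points for KO-labelled arrays (3 each), black bars for mean ± SD and nonspecific background (median 4.23) drawn as a dashed line. The 6 probe sets of Ccnd2 fall from between 9.97 and 11.16 under WT to between 5.56 and 7.87 under KO, Ccne1 moves the other way, and a probe set each of Ccnd3 and Rb1 lies near the dashed line.

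Among the D-type cyclins, which link growth signals to CDK4 and CDK6, Ccnd2 (cyclin D2) fell most. Its most variable probe set, 1416123_PM_at, had log2 values of 10.80, 10.17 and 10.44 on the WT-labelled arrays of replicates 1, 3 and 5 and of 6.63, 5.56 and 6.79 on the KO-labelled ones. Every KO-labelled array lay more than 3 log2 units below every WT-labelled array. This is a log2 fold change of −4.14 (95% interval −4.97 to −3.32, SE 0.34, limma adjusted p = 0.00025), a level 17.7-fold lower under KO. Another probe set, 1430127_PM_a_at, had values of 11.16, 11.06 and 11.16 under WT and 7.54, 6.99 and 7.87 under KO, a change of −3.66 (SE 0.21, limma adjusted p = 6e-05). All 6 probe sets fell, by −3.31 for 1416122_PM_at (9.94-fold) at the least, with −3.64 for 1416124_PM_at, −4.04 for 1434745_PM_at and −4.08 for 1448229_PM_s_at in between, and adjusted p-values from 7.7e-06 to 0.00025 (limma). KO replicate 3 had the lowest value in each of the 6, and within the 4 arrays of replicates 1 and 5 the changes ran from −3.16 to −3.94. The KO-labelled levels were above the median of the 23 nonspecific background probe sets (4.23) in all 6, but within their range (3.28 to 8.32), so these folds may be low estimates.

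Ccnd1 (cyclin D1), the D-type cyclin most closely tied to growth factor signalling in fibroblasts, fell in all 3 of its probe sets. In 1417419_PM_at the values were 9.99, 9.90 and 9.89 under WT and 8.72, 8.12 and 8.57 under KO, a log2 fold change of −1.46 (SE 0.16, limma adjusted p = 0.00072), or 2.74-fold lower. In 1448698_PM_at, they were 11.82, 11.86 and 11.95 under WT and 10.64, 10.17 and 10.63 under KO, a change of −1.40 (SE 0.14, limma adjusted p = 0.00052). The third, 1417420_PM_at, changed by −1.02 (SE 0.12, limma adjusted p = 0.001), close to the limit of 2-fold. The WT-labelled arrays were tightly grouped and the KO-labelled ones spread more, with KO replicate 3 again lowest in each probe set. Within the 4 arrays of replicates 1 and 5 the changes were −1.29, −1.25 and −0.94, in the same order.

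Ccnd3 (cyclin D3), by contrast, had higher values under KO. Its probe set 1415907_PM_at had values of 9.35, 9.07 and 9.63 under WT and 10.53, 9.73 and 11.11 under KO. The lowest KO-labelled array was just above the highest WT-labelled one, and the KO-labelled arrays had the widest spread of any member (SD 0.69, n = 3). The log2 fold change was 1.11 (standard error 0.35, 95% interval 0.27 to 1.94) with an adjusted p of 0.052 over all probe sets and 0.042 over the genes (limma). Over probe sets it passed in the fit with a replicate block (adjusted p = 0.0095) and with the hybridisation-control grouping as covariate (adjusted p = 0.012), so the call depends on the model as well as on the family of tests. Without KO replicate 3 the change was 1.47 (adjusted p = 0.0067 over probe sets), and without both replicate 3 arrays 1.33 (adjusted p = 0.024). Leaving out any one of the other 5 arrays gave changes from 0.78 without KO replicate 5 to 1.25 without WT replicate 5, and adjusted p-values over the genes from 0.058 without WT replicate 5 to 0.13 without WT replicate 3, none of which passed (0.1 without WT replicate 1, 0.11 without KO replicate 1 and 0.084 without KO replicate 5). The other probe set, 1438805_PM_at, had means of 4.25 and 4.22, near nonspecific background, and does not bear on the gene.

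The E-type cyclins, the partners of CDK2 at the entry into S phase, moved in opposite directions. Ccne1 (cyclin E1) had values of 8.65, 8.07 and 8.44 under WT and 11.20, 10.62 and 10.92 under KO. The groups were far apart, and replicate 3 was the lowest array under both labels. The log2 fold change was 2.53 (95% interval 2.05 to 3.0, SE 0.20, limma adjusted p = 0.00019), a level 5.77-fold higher under KO, and 2.52 within the 4 arrays of replicates 1 and 5. Ccne2 (cyclin E2) had values of 7.11, 7.45 and 7.21 under WT and 6.36, 6.80 and 6.18 under KO. These groups did not overlap either, and here replicate 3 was the highest array under both labels. Ccne2 fell by 0.81 on the log2 scale (95% interval −1.23 to −0.38, SE 0.18, limma adjusted p = 0.014), and the change was −0.88 within the 4 arrays. Each E-type cyclin was measured by 1 probe set.

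Of the kinases, Cdk6 fell and Cdk4 and Cdk2 did not pass. Cdk6, which like Cdk4 binds D-type cyclins, had values of 8.84, 8.42 and 8.42 under WT and 7.89, 7.70 and 7.37 under KO in 1435338_PM_at, a log2 fold change of −0.91 (SE 0.17, limma adjusted p = 0.0078). In 1455287_PM_at they were 10.06, 9.75 and 9.60 under WT and 9.09, 9.19 and 8.87 under KO, a change of −0.76 (SE 0.14, limma adjusted p = 0.0075). The third, 1460291_PM_at, had means of 9.64 ± 0.36 under WT and 9.14 ± 0.17 under KO (SD, n = 3) and a difference of −0.50 (95% interval −0.96 to −0.05, limma adjusted p = 0.093), which passed without WT replicate 5 (−0.65, adjusted p = 0.043). The groups did not overlap in any of the 3, and each change was under 2-fold. Within the 4 arrays of replicates 1 and 5 the differences were −1.0 (adjusted p = 0.053), −0.85 (adjusted p = 0.043) and −0.55 (adjusted p = 0.25), so there only the second passed.

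Cdk4, the main partner of D-type cyclins in many cells, had values of 12.09, 12.32 and 12.12 under WT and 12.33, 12.44 and 12.24 under KO in 1422439_PM_a_at. The groups overlapped by a narrow margin in this probe set and did not overlap in the other 2. The differences were 0.16 (95% interval −0.06 to 0.38) here, 0.18 (0.003 to 0.35) in 1422440_PM_at and 0.16 (−0.01 to 0.32) in 1422441_PM_x_at, with adjusted p-values of 0.26, 0.12 and 0.15 (limma). All 3 intervals end well below a 2-fold change. Cdk2, the partner of the E-type cyclins, had values of 9.94, 9.93 and 10.26 under WT and 9.87, 9.71 and 9.74 under KO, a difference of −0.27 (95% interval −0.54 to −0.004, limma adjusted p = 0.12). Its groups lay next to each other without overlap, and its interval too excludes a 2-fold change. Every probe set of the 3 kinases thus had a measured difference of under 2-fold with all arrays in the fit. For Cdk6, however, the 95% intervals of 1435338_PM_at (−1.32 to −0.49) and 1455287_PM_at (−1.10 to −0.41) include a 2-fold fall. Without KO replicate 1 the change of 1435338_PM_at was −1.03.

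**Figure D2:**
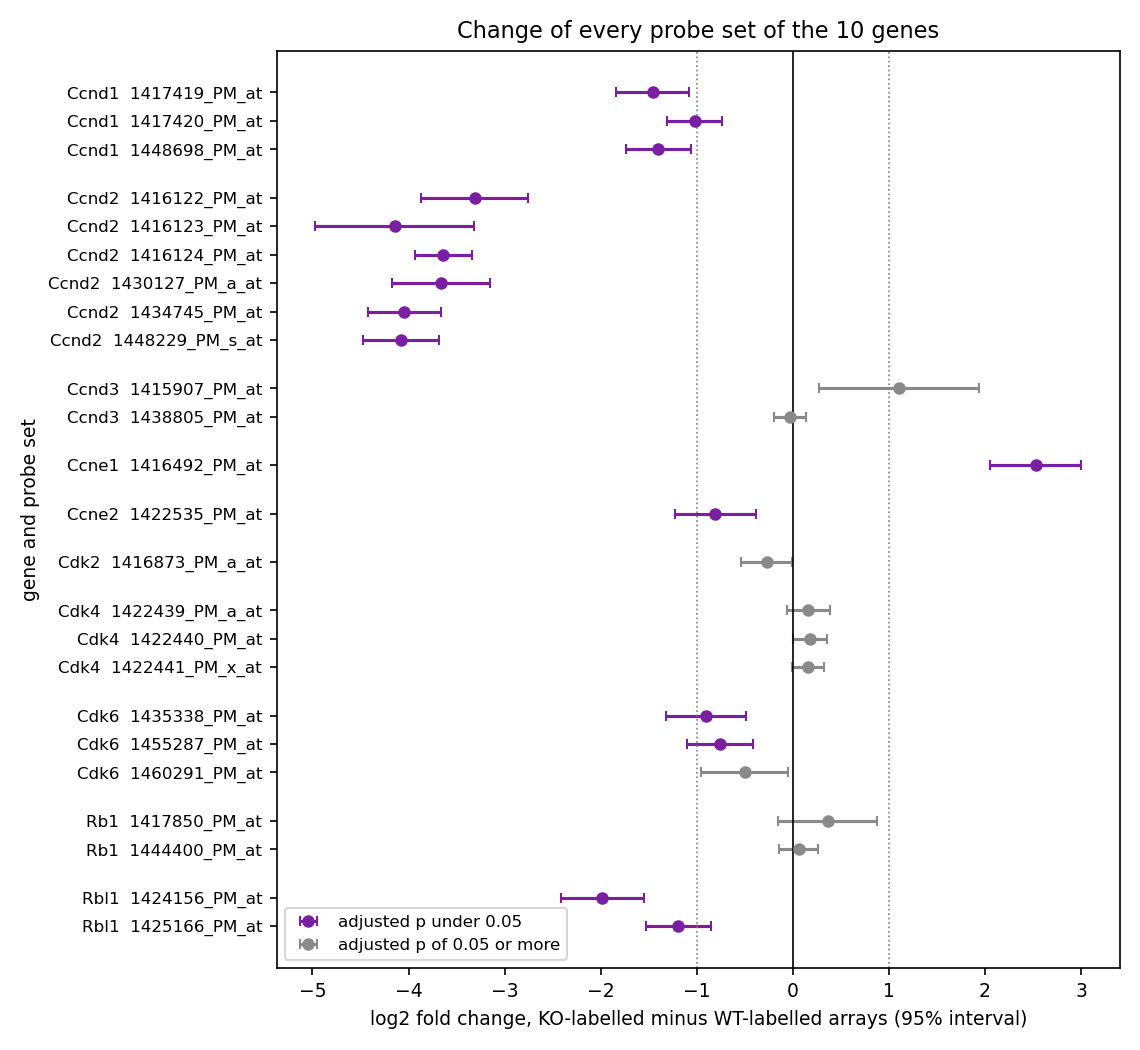
Log2 fold change, KO-labelled minus WT-labelled arrays (horizontal axis, with 95% intervals from limma), of each of the 24 probe sets (vertical axis), in purple where the adjusted p over all probe sets was under 0.05 and in grey otherwise, with dotted lines at 2-fold. Ccnd2 lies between −4.14 and −3.31 in all 6 probe sets and Ccne1 at 2.53, while the 3 probe sets of Cdk4 lie between 0.16 and 0.18.

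The pocket proteins, which restrain E2F factors until CDKs phosphorylate them, gave unlike results, since Rbl1 fell in both probe sets and Rb1 did not pass. Rbl1 (p107), the pocket protein most abundant in proliferating cells, had values of 7.91, 8.44 and 8.58 under WT and 6.29, 6.22 and 6.48 under KO in 1424156_PM_at. The change was −1.98 (95% interval −2.42 to −1.54, SE 0.18, limma adjusted p = 0.00036), a level 3.95-fold lower under KO. In 1425166_PM_at the values were 7.56, 7.68 and 7.18 under WT and 6.21, 6.37 and 6.27 under KO, a change of −1.19 (SE 0.14, limma adjusted p = 0.001). The KO-labelled arrays were close together and below every WT-labelled array in both probe sets, and within the 4 arrays of replicates 1 and 5 the changes were −1.86 and −1.13. Its promoter holds the E2F match shown above.

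Rb1, the retinoblastoma tumour suppressor, had values of 6.69, 7.23 and 7.31 under WT and 7.43, 7.74 and 7.14 under KO in 1417850_PM_at. The groups overlapped, since KO replicate 5 lay below WT replicates 3 and 5. The difference was 0.36 (95% interval −0.16 to 0.88, limma adjusted p = 0.28), so that a change of up to 1.84-fold upwards lies within the interval. The other probe set, 1444400_PM_at, had means of 4.49 and 4.54, near nonspecific background. Rbl2 (p130), the remaining pocket protein and the one most abundant in resting cells, is not one of the 10 genes. It had values of 6.75, 6.84 and 6.94 under WT and 5.12, 4.82 and 4.88 under KO in its most variable probe set and fell by 1.91 on the log2 scale (SE 0.10, limma adjusted p = 3.1e-05 over the genes). Another Rbl2 probe set, 1425981_PM_a_at, had lower means of 5.38 under WT and 4.57 under KO. It fell by 0.81, under 2-fold (limma adjusted p = 0.00035 over all probe sets).

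To ask whether members of a family changed unequally, the log2 value of one gene was subtracted from that of the other within each array (most variable probe set of each), and these differences were compared between labels for 6 pairs. In each pair the 3 KO-labelled arrays lay apart from the 3 WT-labelled ones, with an exact two-sided permutation p of 0.1, the smallest that 3 arrays against 3 allow, and 0.1 after Benjamini-Hochberg adjustment over the 6 pairs. None can therefore pass 0.05 by this test. Relative to Ccnd2, Ccnd1 was higher by 2.69 under KO than under WT (SD 0.27 and 0.39 of the difference under WT and KO, n = 3 each). Relative to Ccnd3, Ccnd1 was lower by −2.56 and Ccnd2 by −5.25. Relative to Ccne2, Ccne1 was higher by 3.33 (SD 0.47 and 0.56). Relative to Cdk6, Cdk4 was higher by 1.07, and relative to Rbl1, Rb1 was higher by 2.34 (SD 0.03 and 0.43). Leaving out each array in turn, the largest of these, between Ccnd2 and Ccnd3, ran from −5.41 to −5.09 and the smallest, between Cdk4 and Cdk6, from 0.89 to 1.21. Levels of different probe sets are not compared here, only their changes.

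**Figure D3:**
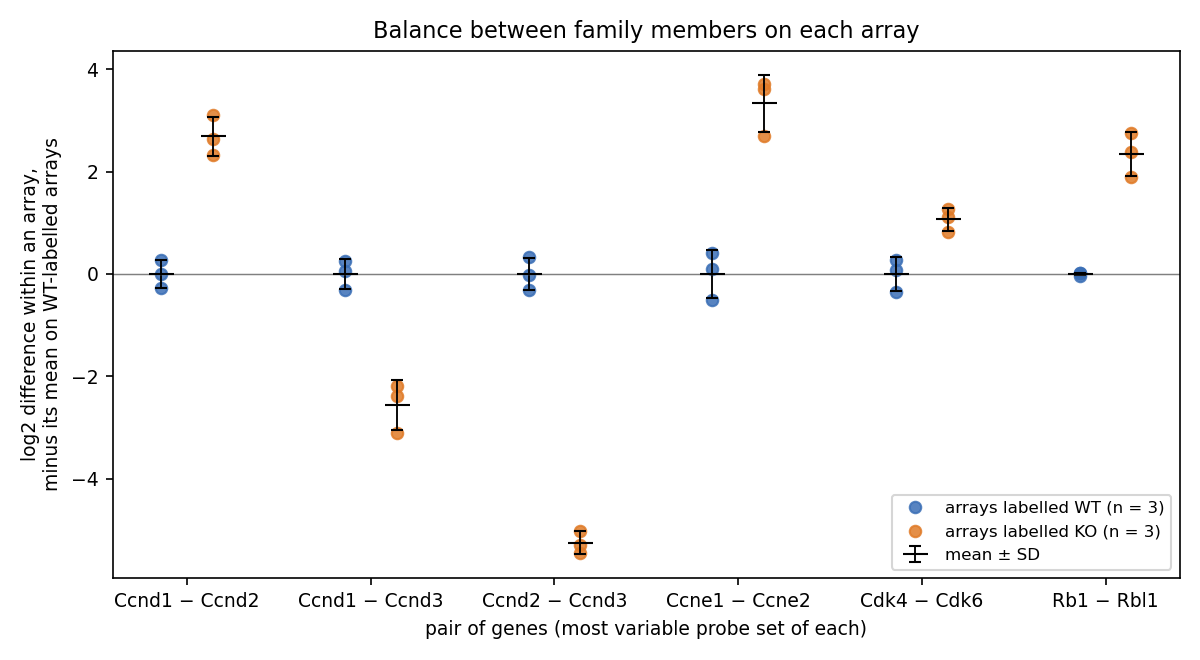
Difference between the log2 values of 2 related genes within each array, after subtracting its mean on the WT-labelled arrays (vertical axis), for 6 pairs (horizontal axis), with points for arrays labelled WT (blue) and KO (orange) and bars for mean ± SD (n = 3). The KO-labelled arrays lie above the WT-labelled ones for Ccnd1 − Ccnd2, Ccne1 − Ccne2, Cdk4 − Cdk6 and Rb1 − Rbl1 and below them for both pairs with Ccnd3, furthest for Ccnd2 − Ccnd3 (mean −5.25).

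The genes that act on or below these members are described by lists, each gene by its most variable probe set with adjustment over all genes (limma). Over all genes 19.2% were lower and 22.6% higher, with a median log2 fold change of 0.02, against −0.54 for the 10 members. Among inhibitors of CDKs, 4 of 7 were lower and 1 higher (median −0.84). Cdkn2b (p15) changed by −4.17 (SE 0.19, limma adjusted p = 1.4e-05), and its neighbour in the genome Cdkn2a (the gene of both p16 and ARF, not told apart here) by −3.50 (SE 0.23, limma adjusted p = 7.2e-05). Cdkn2c (p18) changed by −1.95 and Cdkn2d (p19) by −0.84, although Cdkn2d did not pass without both replicate 3 arrays (−0.88, adjusted p = 0.069). Cdkn1c (p57) rose by 4.79 (SE 0.42, limma adjusted p = 0.00021), from 5.71 ± 0.05 under WT to 10.50 ± 0.90 under KO (SD, n = 3). Cdkn1a (p21) and Cdkn1b (p27) had differences of 0.34 and −0.50 and adjusted p-values of 0.17 and 0.051, and Cdkn1b passed without WT replicate 1 (−0.67, adjusted p = 0.0078). Cdkn1b also passed with the replicate block (limma adjusted p = 0.04) and the hybridisation-control grouping as covariate (0.03). The same held with an intensity trend and robust prior (0.042) and with dim probe sets left out (0.037).

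Of 10 E2F and DP transcription factors, the partners of the pocket proteins, 4 were higher (22.6% of all genes) and 1 lower (19.2%), with a median of 0.39. E2f5 and E2f4, which mostly repress with p130 and p107, rose by 1.05 (SE 0.078, limma adjusted p = 0.00011) and 0.98 (SE 0.15, limma adjusted p = 0.0024), E2f8 by 0.73 and Tfdp2 by 0.73, of which Tfdp2 did not pass without both replicate 3 arrays (0.72, adjusted p = 0.055). E2f7 fell by 0.40 (limma adjusted p = 0.018), a call lost without WT replicate 3, WT replicate 5, KO replicate 1 or KO replicate 5 (−0.38, −0.39, −0.37 and −0.35). The lowest difference of the list was that of E2f6 (−0.53, limma adjusted p = 0.097). It did not pass here but did in some alternative fits, among them the replicate block (adjusted p = 0.021). E2f1, the best known activator, had a difference of 0.01 (adjusted p = 0.94), and E2f2 and E2f3 did not pass (0.49 and 0.26), E2f2 passing without KO replicate 3 (0.66, adjusted p = 0.043). E2f2 passed too with the replicate block (limma adjusted p = 0.0057) and the hybridisation-control grouping as covariate (0.029). Of 18 E2F target genes of the G1/S transition, 10 were higher (22.6% of all genes) and 0 lower (19.2%) by limma, also 0 lower at an unadjusted p under 0.05, with a median of 0.59. They ran from Mcm5 of the replicative helicase (1.17, standard error 0.15, limma adjusted p = 0.0012) to Tk1, thymidine kinase, at −0.28 (adjusted p = 0.19), and 1 of the 10, Mcm5, passed 2-fold. Of all probe sets 6.35% were higher past this limit, and the share over genes was not computed. The Mcm5 probe set had means of 4.98 under WT, below the array medians of 5.62 to 5.64, and 6.16 under KO. By the brightest probe set of each gene, Slbp and Mcm2 did not pass (0.16 and 0.48, limma adjusted p = 0.13 and 0.055) and Mcm3 did (0.58, limma adjusted p = 0.0011). Slbp also lost its call without WT replicate 1, WT replicate 5 or KO replicate 1 (0.68 to 0.84). Rrm2, the regulated subunit of ribonucleotide reductase, rose by 0.80 (limma adjusted p = 0.0007).

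Of 6 genes of the list with Rbl2, the MuvB core and its partner Mybl2, 3 were higher (22.6% of all genes) and 2 lower (19.2%). The median was 0.13, from Mybl2 (B-MYB), an E2F target, at 1.59 (SE 0.36, limma adjusted p = 0.013) to Rbl2 at −1.91. The lower call of Lin9 (−0.72, adjusted p = 0.034) was lost without WT replicate 1, WT replicate 3, KO replicate 1 or KO replicate 5 (−0.81, −0.52, −0.69 and −0.60). The higher call of Lin52 was lost without KO replicate 3 (0.51, limma adjusted p = 0.051). Of 5 genes of CDK activation and folding, 3 were higher (22.6% of all genes) and 1 lower (19.2%, near the share in this list). The median was 0.40, from Cdk7, the CDK-activating kinase, at 1.17 (SE 0.19, limma adjusted p = 0.0031) to the phosphatase Cdc25b at −1.41 (SE 0.096, limma adjusted p = 7.8e-05). Ccnh lost its higher call without KO replicate 1, KO replicate 3, WT replicate 1 or WT replicate 5 (0.40 to 0.50). Ccnh and Mnat1 did not pass within the 4 arrays of replicates 1 and 5 (0.54 and 0.33, limma adjusted p = 0.054 and 0.052). Of 11 genes of G1 cyclin turnover, 4 were higher (22.6% of all genes) and 2 lower (19.2%, near the share in this list), with a median of 0.17. Fbxw7, which marks cyclin E for degradation, rose by 1.20 (SE 0.14, limma adjusted p = 0.0008), and Fbxo4, described as a factor for cyclin D1 degradation, fell by 2.66 (SE 0.11, limma adjusted p = 9.3e-06). Among these, Rbx1 and Cul3 lost their higher call when any of several arrays was left out (without KO replicate 1, KO replicate 3 or WT replicate 1 for both, without WT replicate 5 for Rbx1 and without WT replicate 3 for Cul3), with changes between 0.34 and 0.51.

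Of 6 cyclins and CDK1 of the S and M phases, 1 was higher (22.6% of all genes, near the share in this list) and 2 lower (19.2%). The median was 0.002, from Ccnf at 0.99 (SE 0.26, limma adjusted p = 0.022) to Ccnb2 (cyclin B2) at −0.66 (SE 0.20, limma adjusted p = 0.04). Ccnb2 lost its call without each array except KO replicate 1 (−0.75 to −0.46), and Ccnf without WT replicate 1, WT replicate 3, KO replicate 1 or KO replicate 5 (0.82 to 0.99). Cdk1, the mitotic kinase, had a difference of −0.10 (adjusted p = 0.4). Of 11 mitogen-responsive genes, 3 were higher (22.6% of all genes, near the share in this list) and 4 lower (19.2%), with a median of −0.72. The largest were Mycn (N-MYC), a gene of embryonic cells, at 5.10 (SE 0.10, limma adjusted p = 9.9e-07), and Fosl1, an AP-1 factor that acts on the promoter of Ccnd1, at −5.05 (SE 0.26, limma adjusted p = 2.6e-05). The size for Mycn depends on the probe set, since 1425922_PM_a_at and 1425923_PM_at rose by 2.72 and 2.99. The other higher genes were Spry4 at 4.82 (limma adjusted p = 1.4e-06) and Etv5 at 2.59 (limma adjusted p = 2.3e-05). Dusp6 (0.44, limma adjusted p = 0.4) and Etv4 (−0.70, limma adjusted p = 0.13) did not pass, and Etv4 was lower without WT replicate 5 (−1.05, adjusted p = 0.0076). Jun, another AP-1 gene, fell by 3.47 (limma adjusted p = 0.00041). Egr1 and Junb were also lower (−2.59 and −1.07), and Egr1 did not pass within the 4 arrays of replicates 1 and 5 (−2.53, limma adjusted p = 0.068). Fos had a difference of −1.96 (limma adjusted p = 0.058) and a wide spread under WT (SD 1.42, n = 3). It passed in several alternatives, among them the replicate block (adjusted p = 0.022) and the 4 arrays (−1.35, adjusted p = 0.011). Myc had a difference of −0.72 (adjusted p = 0.059), which passed without KO replicate 1 (−1.01, adjusted p = 0.0034). It also passed with the replicate block (limma adjusted p = 0.017), an intensity trend and robust prior (0.037) and dim probe sets left out (0.032).

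**Figure D4:**
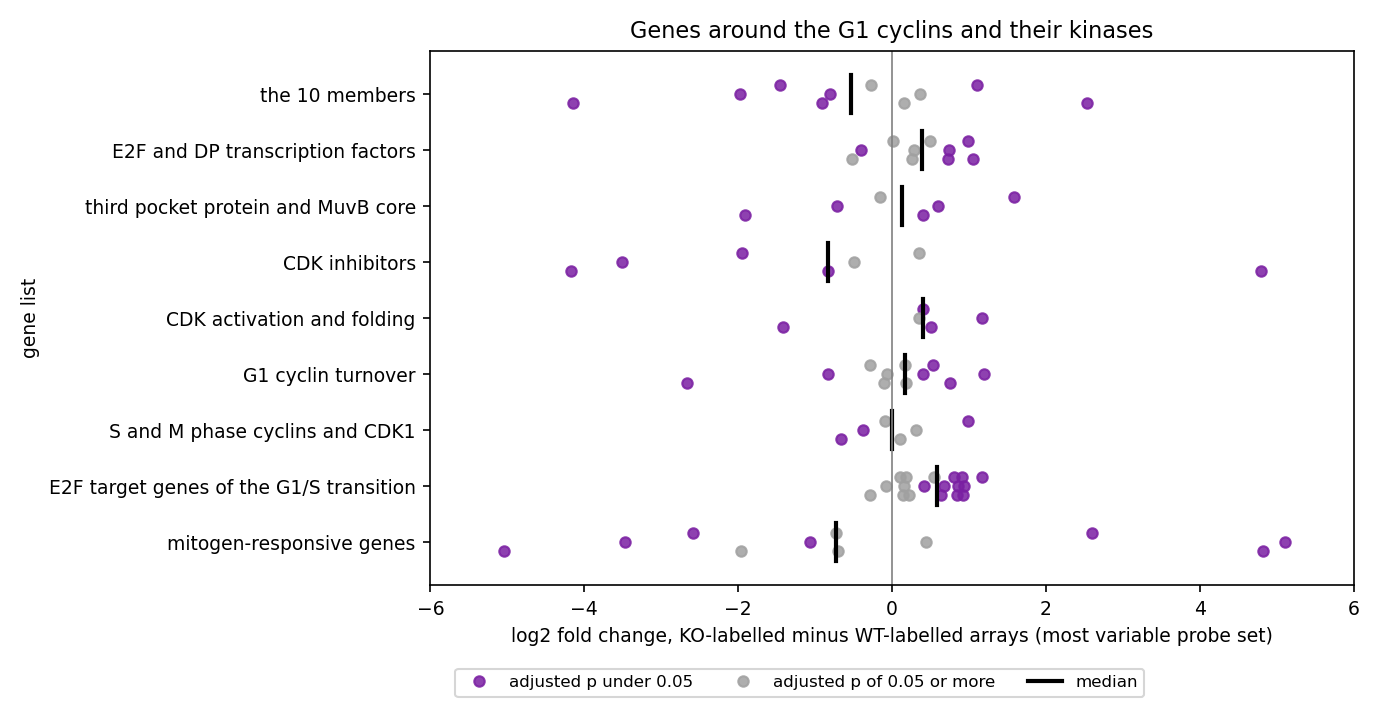
Log2 fold change, KO-labelled minus WT-labelled arrays (horizontal axis), of each measured gene of the 10 members and of 8 lists around them (vertical axis), in purple where the adjusted p over all genes was under 0.05 and in grey otherwise, with a black bar at the median. The CDK inhibitors and mitogen-responsive genes spread from below −4 to above 4, while the E2F targets lie between −0.28 and 1.17.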

How the data were processed

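RNA of 3 WT-labelled and 3 KO-labelled samples was measured on Affymetrix mouse genome arrays of the perfect-match (PM) kind. The deposited values are log2 expression per probe set, made by the authors with RMA (Robust Multichip Average), including normalisation between arrays, and used as deposited. Of 45141 probe sets, 104 array controls were left out. Of the rest, 28898 had 1 gene symbol in the platform's annotation and 28689 of these were matched by gene identifier to RefSeq (0 symbols changed). No probe set with several symbols included a member.

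KO-labelled minus WT-labelled arrays were compared in limma 3.58.1 under R 4.3.3 (lmFit, then eBayes) over all probe sets with no filter on low values. The study's model had the scan batch as covariate, which the sources used here do not give by array, so it was left out. P-values were adjusted by Benjamini-Hochberg over 45037 probe sets or 17097 genes, each gene by its most variable probe set, a choice that favours change. The members and lists were chosen with earlier results of these data known, so the lists got no test of their own. Named were all members, of each list the highest and lowest gene, and CDK inhibitors and E2F genes where needed. Fos, Jun, Junb, Egr1, Myc, Spry4, Etv4, Etv5, Dusp6, Rrm2, Tk1, Cdk1 and some of the genes whose call was lost were added after seeing values. Not every lost call is named. The fit was tested on simulated data. Lin37, Cdc25a, Ccnb1, Nasp, Tdgf1 and Hbb-b1 were not analysed here. Alternatives covered the replicate block, a covariate that sets the replicate 3 arrays apart (a grouping read from the hybridisation controls, which no label names), normalisation, variance model, dim probe sets, probe set choice and each array left out. Figures were drawn with matplotlib 3.10.9.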

Additional observations from a re-analysis of the deposited data

How the results depend on the processing

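The 14 lower probe sets of the members ranged from 14 to 15 when each array was left out, and those past 2-fold from 11 to 13. Without 1 array each, the higher probe sets ran from 1 to 2 and the higher genes from 1 to 2, the difference being Ccnd3 in each case. With the replicate block, the hybridisation-control grouping (replicate 3 arrays against the others, read from the control values and named by no label) as covariate, within the 4 arrays of replicates 1 and 5, after quantile normalisation again, with an intensity trend and robust prior, and with dim probe sets left out, the higher probe sets were 2, with Ccnd3 added, and with the mean of all probe sets of a gene the higher genes were 1. The count of lower genes stayed at 5 without each array. Whether the replicate numbers pair the samples is not known here. Deviations from the group means correlated at 0.057, 0.56 and 0.15 for replicates 1, 3 and 5, and between −0.39 and 0.31 for arrays of unlike numbers. The replicate block also brought Cdk6 1460291_PM_at past the threshold (adjusted p = 0.019). Lists with few calls moved most. Lower E2F and DP factors were 2, with E2f6 added, under the replicate block, the hybridisation-control grouping, the 4 arrays and the mean of probe sets, and 0 to 1 with an array left out. Higher E2F and DP factors were 6 under the replicate block and the hybridisation-control grouping (E2f2 and Tfdp1 added). Lower CDK inhibitors were 5 (Cdkn1b added) under both of these, the intensity trend and dim probe sets left out, and 3 within the 4 arrays. Lower mitogen-responsive genes were 6 (Fos and Myc added) under the replicate block, the intensity trend and dim probe sets left out. Lower genes of the list with Rbl2 and MuvB were 1 after quantile normalisation and 1 to 2 with an array left out. Higher S and M phase cyclins were 2 under the replicate block and the hybridisation-control grouping (Ccna1 added) and 0 to 1 with an array left out, and the lower ones were 1 within the 4 arrays, 1 by the brightest probe set (Ccna2 lost) and 1 to 2 with an array left out. Within the 4 arrays, higher genes of CDK activation were 1, and those of G1 cyclin turnover 2 higher and 1 lower, against 2 to 4 higher with an array left out. With the hybridisation-control grouping, 1 E2F target was lower (Tk1, adjusted p = 0.04). The cause was not tested. No difference between paralogues changed sign after quantile normalisation again, within the 4 arrays or with an array left out. The replicate block leaves these differences as they are by design. They were not computed with the hybridisation-control grouping, with the intensity trend or with dim probe sets left out. With 3 arrays a label, the number of arrays limits the precision, and changes near background are low estimates.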
